A study of Schizosaccharomyces pombe with 9 samples.

Results

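The genes described are 10 fission yeast genes of cell-to-cell adhesion: the flocculin genes gsf2 and pfl2 to pfl9, and mbx2, which encodes a transcription factor that regulates flocculins. They were taken by gene name from the annotation deposited with the data, and are 10 of the 6988 gene IDs counted. RNA-seq was performed on poly(A)+ RNA of Schizosaccharomyces pombe of 3 genotypes, with 3 biological replicates each, from h- haploid cells growing in rich YES medium at 30°C. WT carries intact snf22, for which the labels name no marker. In snf22∆, the kanMX marker stands in place of all but the last part of the snf22 reading frame. In snf22-(D996A-E997A), Asp996 and Glu997 of the ATPase motif of Snf22 are changed to alanine; here kanMX follows snf22, separated from it by the nmt1 poly(A) site. With no marker named for WT, its effects cannot be told apart from those of the mutations.

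Flocculins are glycoproteins of the yeast cell wall that bind sugars on neighboring cells and so hold cells together in clumps (flocs). In S. pombe this binding is specific for galactose residues, and Gsf2 is the main flocculin of that kind; the pfl genes (pombe flocculin) encode further proteins of this type, of which the annotation places Pfl3, Pfl7 and Pfl9 in the DIPSY family. Mbx2, a MADS-box protein, activates flocculin genes. Snf22 is the ATPase subunit of SWI/SNF, a complex that uses ATP to move nucleosomes.

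The libraries held 15696972 to 22664218 counts. The snf22 transcript itself (SPCC1620.14c), of which part remains in snf22∆, averaged 2784 normalized counts in the WT libraries, against 1357 where the frame was deleted and 2183 in the ATPase-site mutant. Normalized counts are read counts scaled to one common effective library size, and they are compared within a gene only, since they are not divided by gene length. A gene was tested if 3 or more of the 9 libraries held 10 or more counts of it, which left 6091 genes, 4990 of them coding. A gene is called where its p-value in the quasi-likelihood test of edgeR, after Benjamini-Hochberg adjustment over all genes tested, is at most 0.05, its change at least 2-fold and its mean at least 100 normalized counts in the higher group. Of the 10 genes, 9 were tested; pfl6 was counted too rarely.

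The adhesion genes did not move as one group. In snf22∆, pfl8 fell 3.02-fold, pfl7 2.03-fold, pfl9 2.02-fold and pfl3 1.86-fold relative to WT, whereas pfl2 rose 1.60-fold and mbx2 1.48-fold. In snf22-(D996A-E997A), pfl9, pfl5 and pfl3 fell 1.85-fold, 1.64-fold and 1.57-fold relative to WT, pfl2 fell 1.14-fold, and pfl7 rose 1.88-fold. The mutants were furthest apart at pfl7 and pfl8, which were 3.81-fold and 2.99-fold higher in snf22-(D996A-E997A) than in snf22∆. gsf2 and pfl4 passed the test in none of the 3 comparisons. In such bulk RNA, fewer cells that express a gene and less RNA per cell cannot be told apart.

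**Figure D1:**
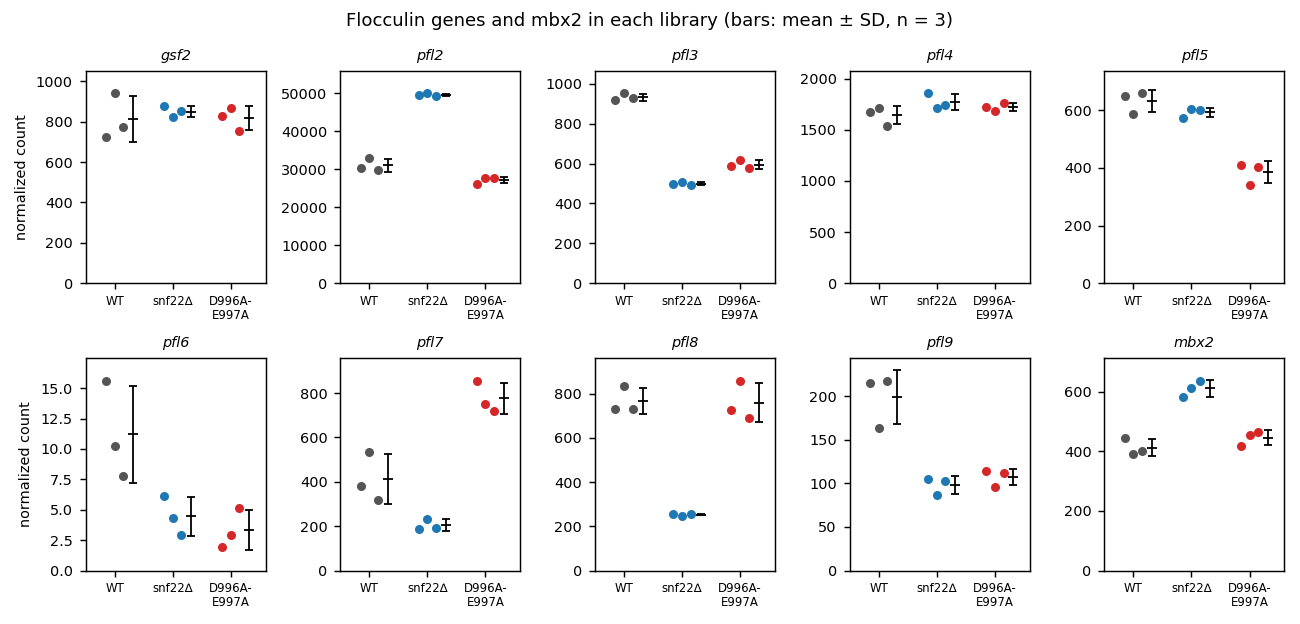
Normalized counts of each flocculin gene and of mbx2 (y axes, each from 0) in the 9 libraries, grouped on the x axis by genotype; points are libraries and bars the mean ± SD of 3. The 3 snf22∆ libraries lie below all others at pfl8 (249 to 256) and above all others at pfl2 and mbx2, and the 3 snf22-(D996A-E997A) libraries lie above all others at pfl7.

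The regulator mbx2 (SPBC317.01, chromosome II) was raised in snf22∆. Its normalized counts were 444, 393 and 401 in WT replicates 1 to 3, 583, 614 and 637 in snf22∆, and 418, 455 and 464 in snf22-(D996A-E997A). Every snf22∆ library was higher than all 6 others, whereas the ranges of WT and snf22-(D996A-E997A) overlapped. The group means, in the same order, were 413 ± 27.6, 611 ± 27.4 and 446 ± 24.7 (SD, n = 3). For mbx2 the log2 fold change was 0.57 (standard error 0.10, adjusted p = 0.000742, edgeR's quasi-likelihood test with Benjamini-Hochberg adjustment) in snf22∆ relative to WT. It was −0.46 (adjusted p = 0.00861, same test) in snf22-(D996A-E997A) relative to snf22∆, so that the difference between the mutants passed the test. Relative to WT, the log2 fold change in snf22-(D996A-E997A) was 0.11, with a 95% interval from −0.11 to 0.33 (adjusted p = 0.371).

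The whole of mbx2 is covered on the other strand by SPNCRNA.1626, which the deposited annotation describes as a predicted antisense RNA. SPNCRNA.1626 had normalized counts of 4708, 8051 and 5549 in WT, 1148, 975 and 908 in snf22∆, and 1455, 1577 and 1495 in snf22-(D996A-E997A). It was thus lower in all 6 mutant libraries than in any WT library. Relative to WT, its log2 fold change was −2.59 in snf22∆ (standard error 0.17, adjusted p = 5.29e-07, edgeR's quasi-likelihood test with Benjamini-Hochberg adjustment) and −2.02 in the ATPase-site mutant (adjusted p = 4.44e-06). SPNCRNA.1626 thus fell 6.04-fold and 4.04-fold, whereas mbx2 rose in snf22∆ and had the interval across 0 given above in snf22-(D996A-E997A). The gap between the mutants at SPNCRNA.1626 was 0.58 on the log2 scale (adjusted p = 0.0342), and its adjusted p reached 0.122 without snf22∆ replicate 3. The library kit marks strand, but the strand setting of the counting is not given in the sources used here. The part of strand assignment in the values of mbx2 was not tested.

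**Figure D2:**
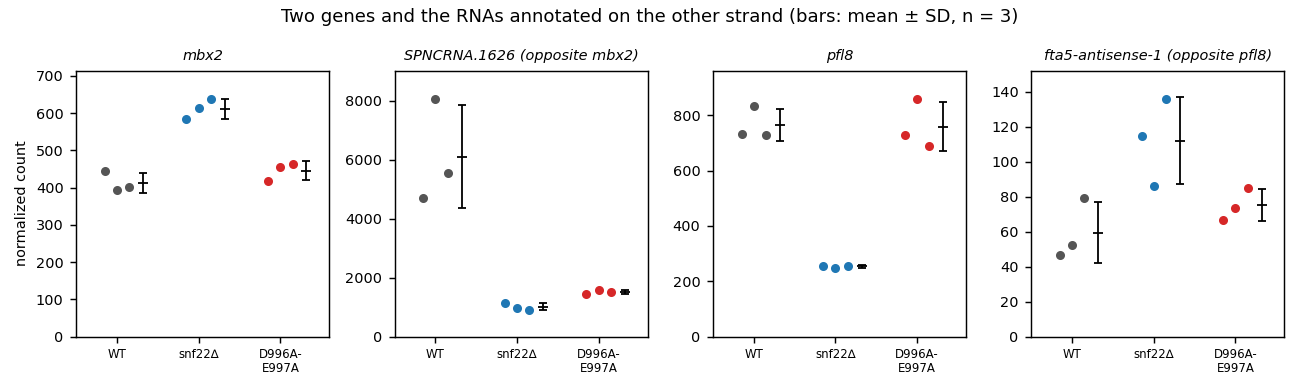
Normalized counts (y axes, each from 0) of mbx2, pfl8 and the RNA annotated opposite each, by genotype; points are libraries and bars the mean ± SD of 3. SPNCRNA.1626 is at 4708 to 8051 in WT and at 908 to 1577 in the mutants, and mbx2 is higher only in snf22∆; fta5-antisense-1 is higher and pfl8 lower in snf22∆ than in WT.

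Of the 3 DIPSY-family flocculin genes, pfl3 (SPBC947.04, chromosome II) fell in both mutants. Its normalized counts were 918, 951 and 926 in WT, 498, 509.8 and 492 in snf22∆, and 587, 619 and 577 in snf22-(D996A-E997A). The groups did not overlap, and the snf22∆ libraries were the lowest. In snf22∆ the log2 fold change of pfl3 was −0.90 against WT (standard error 0.08, adjusted p = 7.08e-06, edgeR's quasi-likelihood test with Benjamini-Hochberg adjustment). In the ATPase-site mutant it was −0.65 (standard error 0.08, adjusted p = 0.000108). The gap between the mutants was 0.25 on the log2 scale (95% interval 0.07 to 0.43), with an adjusted p of 0.0553 that lay between 0.0156 and 0.186 under other settings, 0.0441 with the replicate number as a block.

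pfl9 (SPAC186.01, chromosome I) also fell in both mutants. Its normalized counts were 216, 163 and 218 in WT, 105, 86.7 and 103 in snf22∆, and 114, 96.4 and 112 in snf22-(D996A-E997A). All 6 mutant libraries were below the lowest WT library, and the mutants overlapped each other. The means of pfl9 were 199 ± 30.8, 98.3 ± 10.1 and 107 ± 9.59 (SD, n = 3). Against WT, the log2 fold change of pfl9 in snf22∆ was −1.02 (standard error 0.17, adjusted p = 0.000493, edgeR's quasi-likelihood test with Benjamini-Hochberg adjustment). That in the ATPase-site mutant was −0.89 (standard error 0.17, adjusted p = 0.00148). The gap between the mutants was 0.13 on the log2 scale, with a 95% interval from −0.24 to 0.50.

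The third DIPSY-family gene, pfl7 (SPBC359.04c, chromosome II), moved in opposite directions in the mutants. It had normalized counts of 383, 536 and 320.3 in WT, 185, 234 and 192 in snf22∆, and 856, 753 and 720.3 in snf22-(D996A-E997A). The groups were separate, with snf22∆ lowest and snf22-(D996A-E997A) highest, and WT replicate 2 stood above the other WT libraries. The means were 413 ± 111, 204 ± 26.4 and 776 ± 70.8 (SD, n = 3). Against WT, the log2 fold change of pfl7 was −1.02 in snf22∆ (standard error 0.18, adjusted p = 0.000781, edgeR's quasi-likelihood test with Benjamini-Hochberg adjustment). In the ATPase-site mutant it was 0.91 (standard error 0.17, adjusted p = 0.00157). Directly between the mutants it was 1.93 (standard error 0.18, adjusted p = 2.39e-05). Without WT replicate 2, the log2 fold changes relative to WT were −0.82 and 1.13.

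Markers of M cells also differed between the genotypes. Of 8 listed M-cell markers, which include the M-factor pheromone genes mfm1, mfm2 and mfm3, 7 had counts and were tested. mat1-Mc, which defines M cells, was at 0 in every library. How reads that match several places were counted is not given in the sources used here, so this 0 does not show that mat1-Mc is silent. The summed normalized counts of the markers were 6160 to 6844 in WT, 4301 to 5284 in snf22∆, and 10786 to 11710 in snf22-(D996A-E997A), the same order of genotypes as at pfl7. The sum is not scaled by gene length, and its largest terms in WT were mam1, mam3 and mfm2, with means of 2389, 1782 and 1759. In snf22∆, 5 of the 7 fell and 1 rose relative to WT, where 24.6% of coding genes fell and 33.5% rose. In snf22-(D996A-E997A), 6 rose and none fell, where 28.2% rose and 19.6% fell. mfm2 was called lower in snf22∆ (−1.91 on the log2 scale), and mfm1 and mam2 were called higher in snf22-(D996A-E997A) (2.85 and 2.69). These are 1 and 2 of the 7, where 4.45% and 3.31% of coding genes were called either way. Between the mutants 4 were called, all higher in snf22-(D996A-E997A), beside 1.54%. sxa2, which encodes a secreted protease that degrades P-factor, rose in snf22∆ by 0.56 on the log2 scale, where pfl7 fell, and mam3 passed the test in no comparison. Of 4 listed P-cell markers, 3 were in the table, with map4 the largest in WT at a mean of 1321. Their summed normalized counts were 1886 to 1961 in WT, 1788 to 1834 in snf22∆ and 1588 to 1709 in snf22-(D996A-E997A). Of these 3, map2, which encodes the P-factor precursor, fell by 0.54 in snf22∆ and by 1.26 in snf22-(D996A-E997A) on the log2 scale relative to WT (adjusted p = 0.018 and 0.000243, edgeR's quasi-likelihood test with Benjamini-Hochberg adjustment), and was called lower in the latter. map4 passed in snf22-(D996A-E997A) relative to WT, and map3 in no comparison. The part of these markers in the values of pfl7 was not tested.

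pfl8 (SPAC1F8.06, chromosome I) had the largest change of the 9 tested genes in snf22∆ and none that passed the test in snf22-(D996A-E997A) relative to WT. Its normalized counts were 732, 833 and 730.1 in WT, 256, 249 and 255 in snf22∆, and 727, 858 and 689.6 in snf22-(D996A-E997A). The snf22∆ libraries lay close together and well below the rest, and the other groups overlapped. The means of pfl8 were 765 ± 59.0, 253 ± 3.95 and 758 ± 88.6 (SD, n = 3). In snf22∆ the log2 fold change of pfl8 was −1.59 relative to WT (standard error 0.11, adjusted p = 7.93e-07, edgeR's quasi-likelihood test with Benjamini-Hochberg adjustment). In snf22-(D996A-E997A) it was 1.58 relative to snf22∆ (standard error 0.11, adjusted p = 2.18e-06). Against WT it was −0.01, with a 95% interval from −0.24 to 0.22, and its sign turned when single libraries were left out.

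An antisense RNA, fta5-antisense-1 (SPNCRNA.607), covers 81.8% of pfl8 on the other strand. Its normalized counts were 46.9, 52.2 and 79.1 in WT, 115, 85.8 and 136 in snf22∆, and 66.8, 73.7 and 85.0 in snf22-(D996A-E997A). Every snf22∆ library was above every WT library and every snf22-(D996A-E997A) library. In snf22∆ the log2 fold change of fta5-antisense-1 was 0.93 relative to WT (adjusted p = 0.00702, edgeR's quasi-likelihood test with Benjamini-Hochberg adjustment), opposite in direction to that of pfl8. In snf22-(D996A-E997A) it was 0.35 relative to WT (adjusted p = 0.251) and −0.57 relative to snf22∆ (adjusted p = 0.116). These antisense RNAs were chosen by position after the values of pfl8 and mbx2 had been seen. By position, pfl4-antisense-1 also covers 22.5% of pfl4 on the other strand, and it passed in no comparison. Its log2 fold changes relative to WT were 0.27 in snf22∆ and −0.004 in snf22-(D996A-E997A) (adjusted p = 0.454 and 0.992, same test). SPNCRNA.1379, which covers 9.31% of pfl3, averaged 1.62 normalized counts in WT and 0 in both mutants, and was not tested.

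Among the remaining flocculins, pfl2 (SPAPB15E9.01c, chromosome I) was the flocculin gene that rose in snf22∆. It had normalized counts of 30272, 32927 and 29931 in WT, 49506, 49953 and 49343 in snf22∆, and 26114, 27622 and 27688 in snf22-(D996A-E997A). The snf22∆ libraries were the highest and the snf22-(D996A-E997A) libraries the lowest, with no overlap of groups. The log2 fold change of pfl2 was 0.68 in snf22∆ relative to WT (standard error 0.07, adjusted p = 2.7e-05, edgeR's quasi-likelihood test with Benjamini-Hochberg adjustment). It was −0.87 in the ATPase-site mutant relative to snf22∆ (standard error 0.07, adjusted p = 1.06e-05). The change in snf22-(D996A-E997A) relative to WT was small, −0.19 (adjusted p = 0.0433), and missed the threshold under 10 of 15 other settings, with the highest adjusted p, 0.103, without snf22-(D996A-E997A) replicate 1. An antisense RNA that overlaps 1.62% of pfl2, SPAPB15E9.02c-antisense-1, rose in both mutants, by 1.30 in snf22∆ and 0.83 in snf22-(D996A-E997A) on the log2 scale (adjusted p = 5.38e-06 and 0.000214, same test).

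pfl5 (SPBC1289.15, chromosome II) fell only where the ATPase site was mutated. Its normalized counts were 650.1, 587 and 659 in WT, 575, 604 and 601 in snf22∆, and 412, 342 and 403 in snf22-(D996A-E997A). The snf22-(D996A-E997A) libraries were below all 6 others, and WT and snf22∆ overlapped. For pfl5 the log2 fold change in snf22-(D996A-E997A) was −0.71 relative to WT (standard error 0.10, adjusted p = 0.000308, edgeR's quasi-likelihood test with Benjamini-Hochberg adjustment) and −0.62 relative to snf22∆ (standard error 0.10, adjusted p = 0.00181). In snf22∆ it was −0.09 relative to WT, with a 95% interval from −0.31 to 0.13.

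The galactose-specific flocculin gene gsf2 (SPCC1742.01, chromosome III) had normalized counts of 725, 940.1 and 776 in WT, 879, 821 and 851 in snf22∆, and 830.4, 868 and 753 in snf22-(D996A-E997A). All 3 groups overlapped, and the WT libraries held both the highest and the lowest value. Relative to WT, the log2 fold change of gsf2 was 0.06 in snf22∆ (95% interval −0.17 to 0.29) and 0.01 in snf22-(D996A-E997A) (95% interval −0.22 to 0.24). Both values turned below 0 under some other settings, the second also with other size factors. Between the mutants the log2 fold change was −0.06 (95% interval −0.29 to 0.17).

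pfl4 (SPCC188.09c, chromosome III) likewise passed no test and had normalized counts of 1672, 1711 and 1542 in WT, 1857, 1713 and 1739.9 in snf22∆, and 1721, 1687 and 1760.3 in snf22-(D996A-E997A). The snf22∆ libraries were all above the WT libraries, by a margin that did not pass the test. For pfl4 the log2 fold change was 0.11 in snf22∆ (95% interval −0.04 to 0.26) and 0.07 in snf22-(D996A-E997A) (95% interval −0.08 to 0.22) relative to WT, and −0.04 between the mutants (95% interval −0.19 to 0.11).

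pfl6 (SPAC977.07c, chromosome I) was close to the limit of detection. It had 16, 9 and 6 raw counts in WT, 7, 5 and 3 in snf22∆, and 2, 3 and 5 in snf22-(D996A-E997A). Scaled to library size these were normalized counts of 7.78 to 15.6 in WT, 2.95 to 6.12 in snf22∆ and 1.97 to 5.12 in snf22-(D996A-E997A). After scaling, all 6 mutant libraries were below the lowest WT library, but in raw counts snf22∆ replicate 1, at 7, was above WT replicate 3, at 6. No test was made at this depth.

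**Figure D3:**
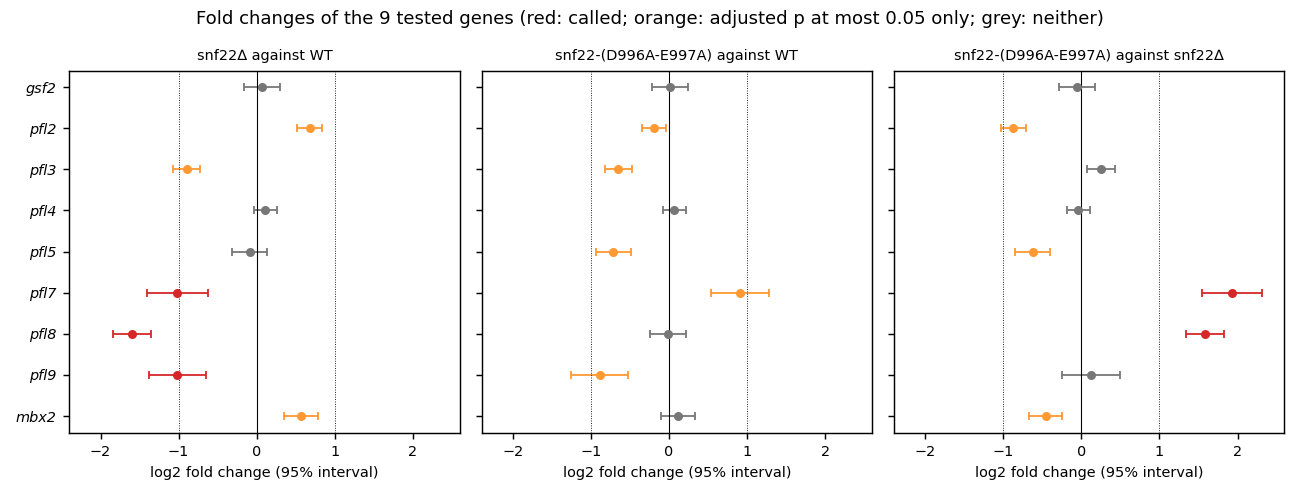
Log2 fold changes (x axes) with 95% intervals of the 9 tested genes in the 3 comparisons; red marks called genes, orange an adjusted p of at most 0.05 alone, grey neither, and dotted lines a 2-fold change. In snf22∆ relative to WT the called genes are pfl7, pfl8 and pfl9, at −1.02, −1.59 and −1.02, and between the mutants pfl7 and pfl8, at 1.93 and 1.58.

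Counted over the set, 3 of the 9 tested genes were called in snf22∆ relative to WT, all lower, where 4.45% of the coding genes tested were called in either direction and 2.22% lower. By adjusted p alone, 2 rose and 4 fell, where 33.5% of coding genes rose, 24.6% fell and 58.1% passed either way. The libraries of 7 did not overlap, as was so for 65.4% of coding genes. pfl7 and pfl9 lie so near the 2-fold limit that leaving out WT replicate 2, snf22∆ replicate 1 or snf22∆ replicate 3 ended the call of pfl7, and leaving out WT replicate 1, WT replicate 3 or snf22∆ replicate 2 that of pfl9. The count of called genes was then 2, and pfl8 was called throughout. The median log2 fold change of the 8 tested flocculin genes was −0.49, where that of all coding genes was 0.06.

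In snf22-(D996A-E997A) relative to WT, none of the 9 was called, where 3.31% of coding genes were (1.56% higher, 1.74% lower); DESeq2 also called none, and 5 had an unadjusted p under 0.05. By adjusted p alone from edgeR's quasi-likelihood test, 1 rose and 4 fell, where 28.2% of coding genes rose, 19.6% fell and 47.9% passed either way. The libraries of 5 did not overlap, as was so for 52.9% of coding genes. Without WT replicate 2, pfl7 was called higher and pfl9 lower, at log2 fold changes of 1.13 and −1.02. The median of the 8 flocculin genes was −0.10, where that of all coding genes was 0.06.

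Between the mutants, 2 of the 9 genes were called, both higher in snf22-(D996A-E997A), where 1.54% of coding genes were called in either direction, 0.822% higher and 0.721% lower. By adjusted p alone, 2 were higher and 3 lower, where 8.32% of coding genes were higher, 8% lower and 16.3% passed either way. The libraries of 6 did not overlap, as was so for 48.1% of coding genes. The median of the 8 flocculin genes was 0.04, where that of all coding genes was −0.01. The 3 comparisons share libraries, and the values of each gene are set side by side above for that reason.

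Regulators of flocculation other than mbx2 were read from a list of 19 genes, of which 18 were found and tested. In snf22∆ relative to WT, 5 rose and 2 fell by adjusted p alone, and 1 was called, where 58.1% of coding genes passed either way and 4.45% were called. In snf22-(D996A-E997A) relative to WT, 5 rose and 4 fell, and 2 were called, beside 47.9% and 3.31% of coding genes. Between the mutants, the ATPase-site mutant had 2 higher and 2 lower, and 1 was called, beside 16.3% and 1.54%. The median log2 fold changes of the 18 were −0.01, 0.05 and −0.06 in that order, beside 0.06, 0.06 and −0.01 for all coding genes.

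The regulator that fell most was cbf12 (SPCC1223.13), which encodes a CSL-family transcription factor that promotes adhesion. It had normalized counts of 1348, 1211 and 1363 in WT, 586, 615 and 557 in snf22∆, and 419, 500.5 and 502 in snf22-(D996A-E997A). The groups did not overlap. cbf12 fell by 1.16 in snf22∆ and by 1.46 in the ATPase-site mutant on the log2 scale, relative to WT (adjusted p = 3.91e-06 and 1.05e-06, edgeR's quasi-likelihood test with Benjamini-Hochberg adjustment), and its log2 fold change between the mutants was −0.31 (adjusted p = 0.0534).

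map1 (SPAC11E3.06), which encodes a MADS-box factor of mating-type genes, rose in the ATPase-site mutant. It had normalized counts of 77.1, 68.1 and 109 in WT, 107, 78.0 and 65.9 in snf22∆, and 294, 279 and 294 in snf22-(D996A-E997A). The snf22-(D996A-E997A) libraries were above all others, which overlapped. Its log2 fold change was 1.78 relative to WT and 1.79 relative to snf22∆ (adjusted p = 6.51e-05 and 0.000125, edgeR's quasi-likelihood test with Benjamini-Hochberg adjustment), and −0.01 in snf22∆ relative to WT (95% interval −0.48 to 0.47).

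The other listed regulators changed less than 2-fold. ssn6, a subunit of the Tup-Ssn6 corepressor, rose by 0.71 in snf22∆ and 0.44 in snf22-(D996A-E997A) on the log2 scale, with −0.27 between the mutants. tup11 and tup12, its partners, did not pass the test in any comparison. adn2, required for adhesion, rose by 0.54 and 0.29, and med13 (srb9 in the list), a subunit of the Mediator kinase module, by 0.31 and 0.27. In snf22∆, fkh2, a forkhead factor of the cell cycle, rose by 0.37 and cbf11, a CSL-family factor, by 0.30, where their values in snf22-(D996A-E997A) were 0.17 and 0.11. The difference between the mutants did not pass for fkh2 (adjusted p = 0.278) or cbf11 (adjusted p = 0.293) in edgeR's quasi-likelihood test with Benjamini-Hochberg adjustment. In snf22-(D996A-E997A), lkh1, a LAMMER kinase whose loss makes cells flocculate, rose by 0.31 relative to WT and 0.45 relative to snf22∆. sre2, a factor of the sterol regulatory element family, fell by 0.55 and 0.45 in the same order, and srb8, of the Mediator kinase module, fell by 0.21 relative to WT. The adjusted p of cbf11, at 0.0495, rose to 0.207 without WT replicate 2, and that of srb8, at 0.0451, to 0.161 without snf22-(D996A-E997A) replicate 3. Under 15 other settings, cbf11 missed the threshold in 11 and srb8 in 9, as did med13 in the ATPase-site mutant. adn2 missed it there in 4, fkh2 in snf22∆ in 3 and med13 in snf22∆ in 1, and between the mutants sre2 missed it in 5 and ssn6 in 3.

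**Figure D4:**
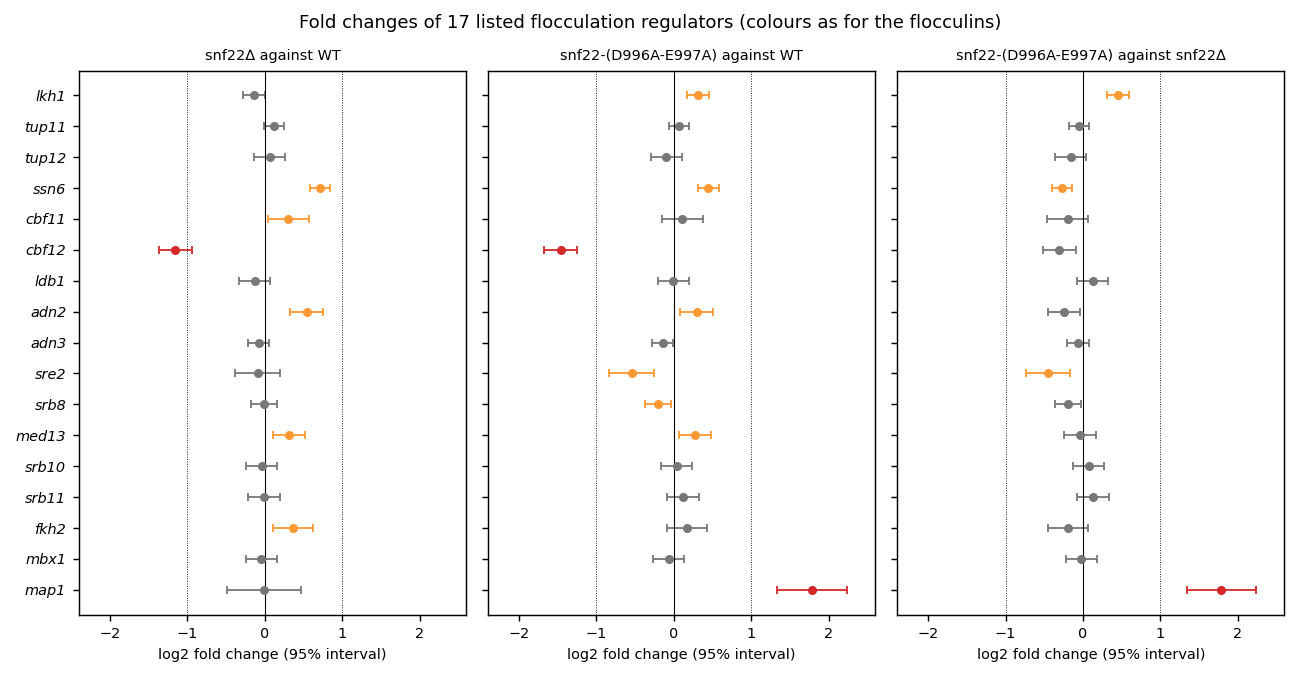
Log2 fold changes (x axes) with 95% intervals of 17 of the 18 tested flocculation regulators in the 3 comparisons, colored by call as for the flocculin genes (red called, orange adjusted p alone). cbf12 is called lower in both mutants, at −1.16 and −1.46, and map1 higher in snf22-(D996A-E997A), at 1.78 relative to WT and 1.79 relative to snf22∆.

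Of the sexual agglutinin genes, which serve adhesion during mating, mam3 of M cells and map4 of P cells were tested. Neither passed the test in snf22∆ relative to WT or between the mutants, and neither was called in any comparison by edgeR or DESeq2. At an unadjusted p under 0.05, 0, 2 and 1 of them passed in the 3 comparisons. In snf22-(D996A-E997A) relative to WT, map4 had a log2 fold change of −0.18 (adjusted p = 0.0428, edgeR's quasi-likelihood test with Benjamini-Hochberg adjustment) and mam3 of 0.24 (adjusted p = 0.0723). The adjusted p of map4 missed the threshold under 10 of 15 other settings and was highest, at 0.13, without snf22-(D996A-E997A) replicate 3.

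The genes whose pattern over the 9 libraries was nearest were ranked by the root mean square difference of centered log2 values among 4989 coding genes. For pfl7 they were mfm3, an M-factor precursor gene, mam4, which encodes the enzyme that methylates M-factor, and spk1, which encodes the MAP kinase of the pheromone response, at differences of 0.184, 0.190 and 0.228. For pfl8 the nearest was mei2, which encodes an RNA-binding protein required for meiosis, at 0.166, followed by SPBC36.01c, annotated as a spermidine family transporter, and SPBPB21E7.09, an L-asparaginase, both at 0.258. mei2 had log2 fold changes of −1.66 and 0.09 relative to WT in snf22∆ and snf22-(D996A-E997A). For pfl9 they were fsh2, a serine hydrolase-like gene, erg1, which encodes squalene monooxygenase of sterol synthesis, and the flocculin gene pfl3, at 0.194, 0.194 and 0.195. fsh2 fell by 1.05 in snf22∆ and 1.02 in snf22-(D996A-E997A) on the log2 scale.

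For mbx2, genes among the 3 nearest were apc14, which encodes a subunit of the anaphase-promoting complex, and mic19, of the mitochondrial MICOS complex, at 0.0765 and 0.0859. For gsf2 they were pil2, which encodes an eisosome protein, cbp4, which encodes an assembly protein of respiratory complex III, and erg9, which encodes squalene synthase, at 0.0523, 0.0538 and 0.0571. None of the 3 nearest to gsf2 passed the test in any comparison. These likenesses describe 9 libraries of 3 genotypes, and many genes that change little lie near gsf2.

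**Figure D5:**
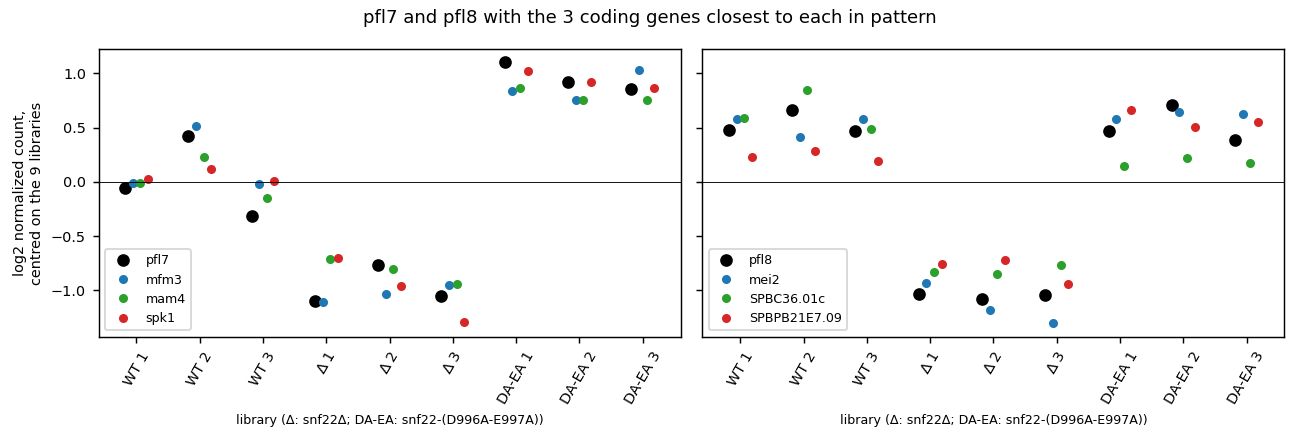
Log2 normalized counts centered on the mean of the 9 libraries (y axis) for pfl7 (left) and pfl8 (right), in black, and the 3 coding genes nearest to each, in color, by library (x axis). pfl7, mfm3, mam4 and spk1 are lowest in snf22∆ and highest in snf22-(D996A-E997A); pfl8 and mei2 are lowest in snf22∆.

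In the gene order of the ASM294v3 annotation, a later build than that used for the counting, 5 of the 10 genes lie within 35 coding genes of a chromosome end. These are pfl6 (15 genes from the end), pfl9 (16) and pfl8 (32) on chromosome I and pfl5 (30) and pfl7 (35) on chromosome II. pfl3 is 251 coding genes from the nearest end, and pfl4, gsf2, mbx2 and pfl2 are 367, 368, 371 and 656 away. The limit of 35 is the distance of pfl7 itself, and the share of all coding genes so near an end was not computed.

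The genes directly beside the 10 changed in either direction. Of the 20 flanking coding genes, 17 were tested, and in snf22∆ relative to WT, 11 rose and 3 fell by adjusted p alone, beside 33.5% and 24.6% of all coding genes. Of the 11 tested neighbors of the 6 genes that passed in snf22∆, 3 changed in the same direction as their flocculin or mbx2, 6 in the opposite direction, and 2 did not pass the test. pfl8, which fell in snf22∆, lies between isp3 and pdc101, which rose by 1.00 and 0.58 on the log2 scale. pfl7 lies between aat1, which encodes an amino acid transporter, and abc3, which encodes a vacuolar heme transporter. These rose by 0.79 and 1.04 in snf22∆, where pfl7 fell, and by 1.10 and 1.72 in snf22-(D996A-E997A), where pfl7 also rose. On both sides of pfl2 the neighbors rose with it in snf22∆, SPAPB18E9.05c by 0.49 and SPAPB15E9.02c, which the study lists as a dubious gene, by 1.40. In snf22-(D996A-E997A), where pfl2 had the small fall given above, SPAPB18E9.05c fell by 0.32 and SPAPB15E9.02c rose by 0.66. Beside pfl9, SPAC186.02c, annotated as a hydroxyacid dehydrogenase, fell with it in snf22∆ (adjusted p = 0.0012, edgeR's quasi-likelihood test with Benjamini-Hochberg adjustment), from few reads. It had normalized counts of 14.6, 10.2 and 13.0 in WT, 1.75, 0 and 0 in snf22∆, and 16.7, 8.85 and 23.6 in snf22-(D996A-E997A). In snf22-(D996A-E997A) relative to WT, 7 neighbors rose and 2 fell by adjusted p alone, beside 28.2% and 19.6% of all coding genes. Of the 9 tested beside genes that passed there, 3 changed in the same direction, 2 in the opposite one, and 4 did not pass. Between the mutants, 3 neighbors were higher and 3 lower, beside 8.32% and 8% of all coding genes. Of 10 beside genes that passed, 4 changed in the same direction, 1 in the opposite one, and 5 did not pass. The neighbors were chosen by position after the values of the 10 genes had been seen.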

How the data were processed

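Hot-phenol RNA was made into stranded poly(A)+ libraries and sequenced in pairs by the authors. Alignment to ASM294v2 was with HISAT2 2.1.0, and HTSeq 0.10.0 counted the reads of each gene's exons. The deposited matrix holds these raw counts, as the authors made them, without scaling. How reads that match more than 1 place were treated is not given in the sources used here, and flocculin genes hold repeats. The deposited DESeq2 tables, which hold the authors' means, log2 fold changes and p-values, gave gene names and product texts only.

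Counts were scaled by TMM and fitted in edgeR 4.0.16 (glmQLFit, glmQLFTest, R 4.3.3) over all 9 libraries, with genotype as the only factor and adjustment over 6091 genes; the procedure was tested on simulated data. The biological coefficient of variation was 0.104. Normalized counts use the mean effective library size. DESeq2 1.42.0 was an alternative. The alternatives also covered RLE size factors, no filter or a minimum of 50 counts, the compared groups alone, a replicate block and each library left out.

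The genes named are the 10, every listed regulator or agglutinin past the adjusted p, and the 3 nearest patterns (pseudocount 1) of mbx2, gsf2 and each gene called relative to WT, except 2 genes that are not reported here. The gene set and the lists were chosen with earlier results of these data known. Of the regulators, rfl1 was not matched to an ID, and adn1 and srb9 are listed as ldb1 and med13. A search of product texts for flocculin, adhesin, agglutinin, GLEYA and DIPSY matched no other gene. The rule was first written with DIPSV for DIPSY, and both spellings gave 0. The texts call mam3 and map4 adhesion proteins, so the search could not find them, and they were listed by name. The labels number the replicates. Same-numbered snf22∆ and WT libraries deviated together (correlations 0.335, 0.476 and 0.522), where those of unlike number gave −0.505 to 0.0211. The deviations were taken from the mean of each group and so sum to 0 within it. Positive values in some pairs therefore draw others below 0, and the values of unlike number are no independent contrast. Libraries of unlike number also reached 0.476 between snf22-(D996A-E997A) and WT. The labels do not say that the numbers pair libraries, and whether they do was not tested. The main values are from the fit without the block, and the block was an alternative.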

Additional observations from a re-analysis of the deposited data

How the results depend on the processing

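Each of the 27 log2 fold changes of the 9 tested genes was recomputed under 15 other settings. Of these 405 values, 378 kept their direction and their side of the threshold, 10 lost the threshold (all pfl2 in snf22-(D996A-E997A) relative to WT, adjusted p from 0.000855 to 0.103), 6 gained it (all pfl3 between the mutants) and 11 changed sign. The sign changed only in values near 0. For gsf2 in snf22-(D996A-E997A) relative to WT the log2 fold change was −0.016 with RLE size factors, −0.016 with DESeq2 and −0.0040 with a minimum of 50 counts, and from −0.071 to 0.114 with single libraries left out. For gsf2 in snf22∆ relative to WT it was −0.014 without WT replicate 1 and up to 0.15 otherwise. For pfl8 in snf22-(D996A-E997A) relative to WT it ranged from −0.111 to 0.051.

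The count of the 9 genes called in snf22-(D996A-E997A) relative to WT was 0 to 2 when single libraries were left out, with 2 without WT replicate 2. In snf22∆ relative to WT it was 3, and 2 without any 1 library of WT or snf22∆. With the replicate block it stayed at 3, and the block moved only the gap of pfl3 between the mutants across the threshold (adjusted p = 0.0441). In the other pairs of groups, same-numbered libraries had correlations from −0.335 to 0.559. Of 420 values of other named genes, 357 kept their direction and an adjusted p of at most 0.05, and 63 lost that threshold. Only results past the adjusted p in the main fit were entered here, so none could gain it. The alternative of levels per gene length was not run. Depth limits pfl6, with at most 16 counts in a library.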
